A study of Mus musculus with 11 samples.

Results

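Gene pairs that encode alternative versions of translation components were followed in the quadriceps muscle of aged mice: Rpl3 and Rpl3l, Eef1a1 and Eef1a2, and Rpl22 and Rpl22l1. The 6 genes were chosen by name, as paralog pairs with a general and a muscle-enriched member together with Rpl22 and its paralog. No rule on their values was used, but earlier results of these data were known when they were chosen. They are 6 of the 53465 genes in the deposited count table, and all 6 were matched by symbol to 1 Ensembl identifier. Total RNA was sequenced from 5 quadriceps libraries of mice given DMSO, the vehicle, and 6 of mice given myriocin, an inhibitor of serine palmitoyltransferase, the first enzyme of sphingolipid synthesis. Mice of both groups belonged to the strain written C57L/6JRj in the labels, entered treatment at 18 months of age and were treated for 10 weeks. Neither the myriocin dose nor the animals' sex is given in the sources used here. Whether every library stems from its own animal is likewise not stated, and p-values then describe only the spread among these libraries, which may be technical.

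Translation elongation needs a GTPase, eEF1A, that delivers aminoacyl-tRNA to the ribosome. Mammals carry a pair of genes for it: Eef1a1 is used by most cells, whereas Eef1a2 takes over in mature skeletal muscle, heart and neurons after birth. Rpl3 and Rpl3l encode alternative versions of a large subunit protein that lies close to the peptidyl transferase centre, and Rpl3l is the version of striated muscle. Rpl22 encodes an RNA-binding large subunit protein, and in mice its paralog Rpl22l1 is restrained by Rpl22 protein and can replace it in the ribosome.

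The coding sequences of each pair show how far the paralogs have diverged, which decides whether their reads can be told apart. For each pair the 90-base stretch with the highest identity is given below, 5′ to 3′, from the GENCODE M21 transcripts of build GRCm38, with the bases that differ between the paralogs in capitals. The Eef1a1 and Eef1a2 stretches lie within 1 exon, at chr9:78480511-78480600 and chr2:181155263-181155352 on the minus strands, and begin at base 55 of the coding sequence. The others are read across an intron, so the genomic span is longer than the sequence: Rpl3 at chr15:80079765-80080369 on the minus strand, Rpl3l at chr17:24733492-24733669, Rpl22 at chr4:152330105-152332345 and Rpl22l1 at chr3:28806835-28807252, all 3 on the plus strand.
Rpl3: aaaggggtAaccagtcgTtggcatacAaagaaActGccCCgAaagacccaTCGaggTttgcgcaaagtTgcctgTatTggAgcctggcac
Rpl3l: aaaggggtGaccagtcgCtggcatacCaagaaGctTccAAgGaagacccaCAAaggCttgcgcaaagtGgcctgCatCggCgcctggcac
Eef1a1: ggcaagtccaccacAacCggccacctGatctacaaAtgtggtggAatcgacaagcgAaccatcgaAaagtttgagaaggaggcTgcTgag
Eef1a2: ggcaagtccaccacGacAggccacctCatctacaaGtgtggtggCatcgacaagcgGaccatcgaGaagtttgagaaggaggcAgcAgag
Rpl22: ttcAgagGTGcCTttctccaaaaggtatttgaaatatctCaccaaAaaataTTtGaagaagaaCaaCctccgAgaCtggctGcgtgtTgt
Rpl22l1: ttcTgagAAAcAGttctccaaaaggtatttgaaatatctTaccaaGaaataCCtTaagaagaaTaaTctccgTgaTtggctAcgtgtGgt

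Even in these stretches 16 of 90 bases differed between Rpl3 and Rpl3l, 9 of 90 between Eef1a1 and Eef1a2, and 17 of 90 between Rpl22 and Rpl22l1. Over the whole coding sequence the aligned bases were 74.4% identical for Rpl3 and Rpl3l, 80.1% for Eef1a1 and Eef1a2, and 70.2% for Rpl22 and Rpl22l1. The longest run of identical bases was 22, 23 and 26 in that order, so no window of 50 bases was shared within a pair. The encoded proteins are of similar length, with 403 and 407 codons for Rpl3 and Rpl3l and 128 and 122 for Rpl22 and Rpl22l1, while the coding sequences of Eef1a1 and Eef1a2 were 1389 and 1392 bases long with their stop codons. The muscle versions Rpl3l and Eef1a2 use more G and C at the third codon position, with 72.3% against 63.4% in Rpl3 and 72.6% against 51.8% in Eef1a1. Rpl22l1 goes the other way, with 41.5% against 65.1% in Rpl22.

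Sequence shared with other annotated genes was found instead, in Rpl3 and Eef1a1, the general paralogs of their pairs, and in Rpl22l1 more than in Rpl22. Of the 50-base windows of the Rpl3 transcript, 85.6% also occurred in another annotated gene, and all 26 such genes were pseudogenes. For Eef1a1 the share was 60.6%, with 18 pseudogenes among 21 genes, and for Rpl22l1 it was 65.6%, with 3 pseudogenes and the antisense gene Gm33051 among 4 genes. Rpl22 shared 5.20% of its windows, and Rpl3l and Eef1a2 shared none. With windows of 100 bases the shares were 79.4% for Rpl3, 26.7% for Eef1a1, 50.8% for Rpl22l1 and 0 for the remaining 3 genes. Reads with several alignments made up 15.2% to 18.1% of the reads of a library and were counted for no gene. The counts of Rpl3, Eef1a1 and Rpl22l1 may therefore be too low by an unknown factor, which bears on every comparison of levels between these genes. The pseudogenes with shared 50-base windows that are in the count table together held at most 1.82% of the reads of their parent gene. Some pseudogenes of Eef1a1 are not in that table. Reads aligned to both parent and pseudogene were counted for neither, so this share sets no limit on the reads lost. Without a stated strand setting, reads of Rpl22l1 and of Gm33051, which overlaps 7.99% of its exon bases, may not have been told apart. Gm33051 itself held 0 reads over all libraries. Rpl3 and Eef1a1 also had exon bases in another annotated gene (2.93% and 4.33%).

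**Figure D1:**
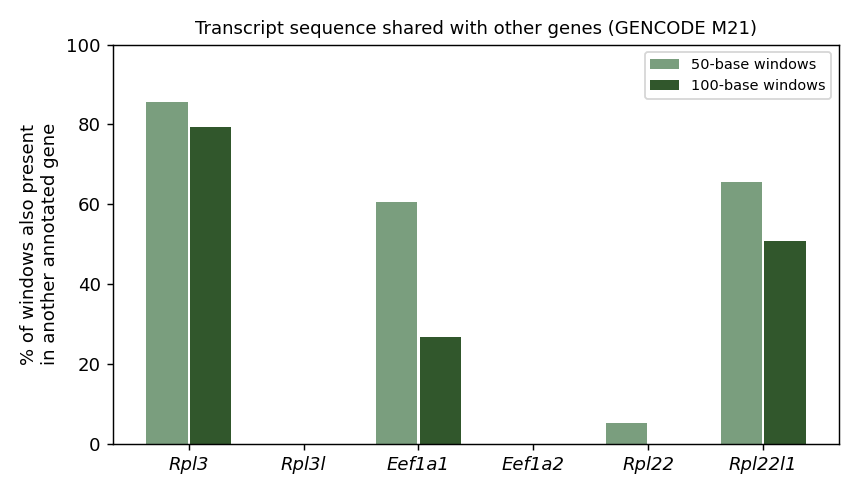
Percentage of 50-base and 100-base windows of each member's transcript that also occur in another annotated gene. Rpl3, Eef1a1 and Rpl22l1 shared most of their 50-base windows (85.6%, 60.6% and 65.6%), Rpl22 few (5.20%), and Rpl3l and Eef1a2 none.

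The libraries held 22241131 to 23163721 reads assigned to genes. Skeletal muscle was checked with 10 markers such as Acta1 and Ckm. Their summed level was 152836 to 188061 CPM (the reads of a gene scaled to the library's gene total) over the libraries. For neurons, a cell type that also uses Eef1a2, 3 markers summed to 0.130 to 0.878 CPM. Marker sums, here and below, are without TMM scaling, while levels of single genes are CPM after TMM scaling. In RNA from whole muscle, fewer cells of a type and less RNA per cell cannot be told apart. DMSO 2, DMSO 5 and Myriocin 4 lay farthest out on the first 2 principal components, and DMSO 4, DMSO 5 and Myriocin 4 carried liver transcripts (87.7 to 107.4 CPM summed over 4 markers, against 5.40 to 26.0 in the other 8 libraries).

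Eef1a2 was the most abundant of the 6 transcripts. In the DMSO group its level was 2312.7, 2223.1, 2196.3, 2414.5 and 2658.7 CPM in libraries 1 to 5, and in the myriocin group it ran from 2220.5 to 2535.6 with a median of 2320.8. It varied little, with a standard deviation of 0.08 on the log2 scale over all 11 libraries, larger than that of only 10.6% of the 500 genes of nearest level. Eef1a1 stood at 337.6, 494.7, 351.4, 361.8 and 379.0 CPM in the DMSO libraries and at 319.5 to 479.2 with a median of 350.9 in the myriocin libraries. A single library in each group stood apart, DMSO 2 with 494.7 and Myriocin 1 with 479.2, while the other 9 lay between 319.5 and 379.0.

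Rpl3l, the ribosomal protein of striated muscle, was read far more than Rpl3. Its level was 538.7, 499.9, 526.6, 532.2 and 643.2 CPM in the DMSO libraries and 481.2 to 651.1 with a median of 534.6 in the myriocin libraries. DMSO 5 and Myriocin 4 were the highest of their groups. Rpl3 stood at 53.5, 91.6, 56.4, 54.8 and 57.0 CPM in the DMSO libraries and at 46.7 to 66.5 with a median of 52.0 in the myriocin libraries. DMSO 2 and Myriocin 1 were again the highest of their groups, as for Eef1a1. The standard deviation of Rpl3, 0.27 on the log2 scale, was larger than that of 95.4% of the 500 genes of nearest level.

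Rpl22 stood at 103.5, 140.1, 109.6, 110.3 and 128.6 CPM in the DMSO libraries and at 102.0 to 121.3 with a median of 114.4 in the myriocin libraries. Rpl22l1 was the least abundant member, with 10.1, 16.6, 14.7, 11.9 and 17.2 CPM in the DMSO libraries and 11.2 to 18.9 with a median of 14.2 in the myriocin libraries. Its counts were 233 to 412 reads per library. The spread between libraries was larger than counting alone gives for every member, from 3.61 times the counting standard deviation for Rpl22l1 to 13.5 times for Eef1a2.

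**Figure D2:**
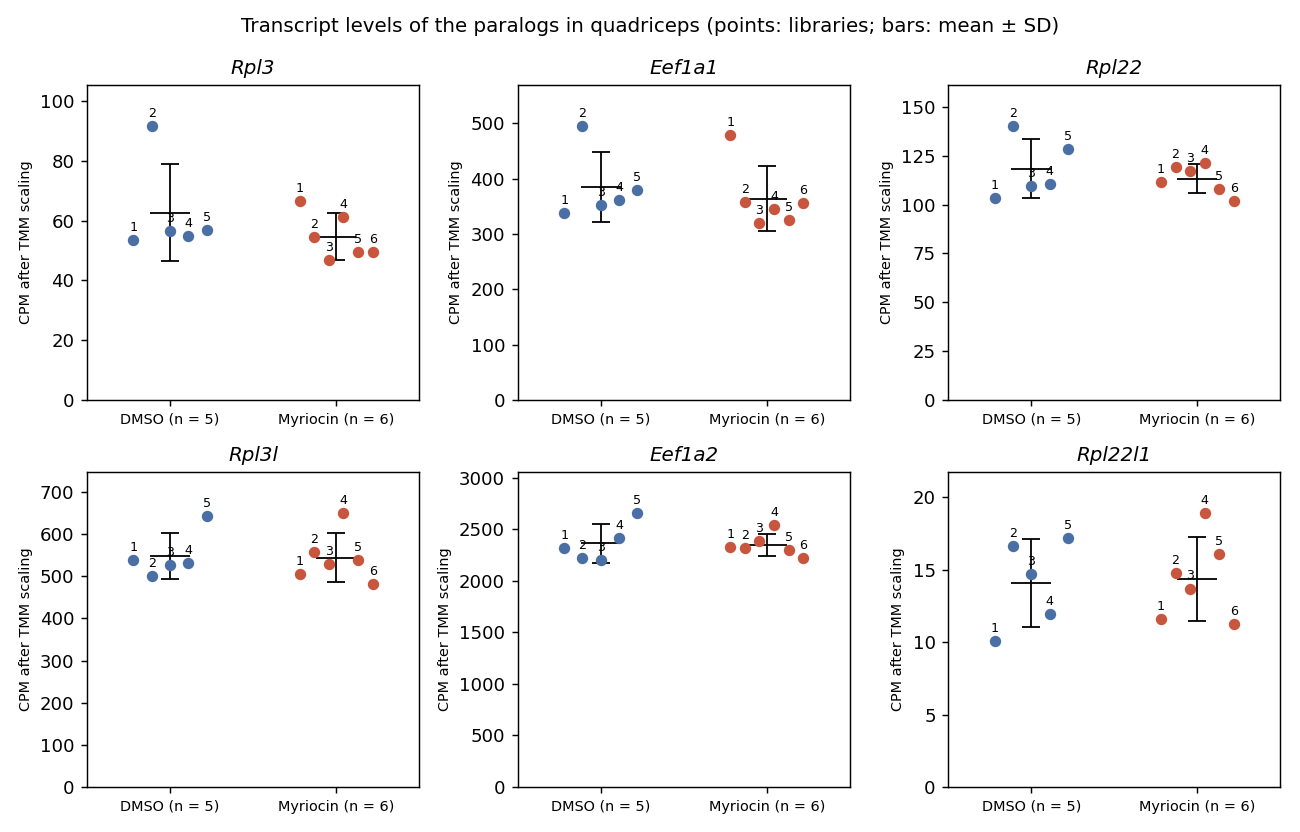
CPM after TMM scaling of each member in the 5 DMSO and 6 myriocin libraries, with replicate numbers beside the points and bars for mean ± SD. The groups overlapped for all 6 genes, and DMSO 2 and Myriocin 1 were the highest libraries of their groups for both Rpl3 and Eef1a1.

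Per kilobase of the principal transcript, the order of the median levels over the 11 libraries was Eef1a2 (1111 CPM per kilobase), Rpl3l (387.0), Eef1a1 (198.6), Rpl22 (54.5), Rpl3 (40.6) and Rpl22l1 (26.7). The ranges of the first 4 did not overlap: 1054 to 1276 for Eef1a2, 350.0 to 473.6 for Rpl3l, 178.1 to 275.8 for Eef1a1, and 49.7 to 68.3 for Rpl22. The range of Rpl3, 34.6 to 67.8, overlapped that of Rpl22, and that of Rpl22l1 was 18.3 to 34.3, just below that of Rpl3. This order depends on the length used. The length was also set to the number of 50-base windows found in no other gene, with all reads of the gene kept. On that length Rpl3 was at 291.7 and Eef1a1 at 517.9 CPM per kilobase, against 401.3 for Rpl3l and 1138 for Eef1a2. Reads were not counted within those windows.

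The same held for the ratio within a pair. Per kilobase of the principal transcript, Rpl3l was at a median of 9.89 times Rpl3. With the number of windows unique at 50 or 100 bases as the length, the same reads gave 1.43 or 2.04 times. Eef1a2 was at 5.75 times Eef1a1 by the principal transcript and at 2.26 or 4.18 times with unique windows as the length. In DMSO 2 the ratio of Rpl3l to Rpl3 was 0.774 with unique 50-base windows as the length. This was the only case below 1 among these settings for the first 2 pairs. Rpl22l1 was at 0.441 times Rpl22 by the principal transcript and at 0.102 with the shortest principal transcript of Rpl22 (474 bases). With unique windows as the length it was at 1.30 or 1.04. Which of Rpl22 and Rpl22l1 was the more abundant per length is thus not settled by these counts.

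Myriocin treatment was compared with DMSO to ask whether the paralogs changed level. None of the 6 members passed the test (edgeR's quasi-likelihood test, Benjamini-Hochberg adjusted p under 0.05 over 14117 genes), and over all genes the share called was 0%. At an unadjusted p under 0.05, 0 of the 6 members were called, against 4.68% of all genes (2.33% higher and 2.34% lower). That background moved with 1 library, from 660 genes to 1449 without Myriocin 4. DESeq2 called 6 genes, none of them a member. The groups overlapped for each member. Over all genes, every myriocin library was above every DMSO library in 0.198% and below in 0.163%. The log2 fold change was negative for 5 of the 6 members and positive for 1, against 53.7% and 46.3% of all genes.

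Rpl3 had the largest difference of the 6, from 62.7 ± 16.2 CPM (SD, n = 5) under DMSO to 54.7 ± 7.74 (SD, n = 6) under myriocin, a log2 fold change of -0.20 (SE 0.14, edgeR adjusted p = 0.936). Its 95% interval ran from -0.50 to 0.11, and without DMSO 2 the log2 fold change was -0.02. Rpl3l was at 548.1 ± 55.2 and 544.5 ± 58.7 CPM, a log2 fold change of -0.01 with an interval of -0.20 to 0.18 (edgeR adjusted p = 0.993). For Rpl3l the interval leaves room for changes of up to about 0.20 on the log2 scale in either direction.

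Eef1a1 was at 384.9 ± 63.2 CPM under DMSO and 363.7 ± 58.7 under myriocin, a log2 fold change of -0.08 with an interval of -0.33 to 0.17 (edgeR adjusted p = 0.952), which was 0.02 without DMSO 2. Eef1a2 was at 2361 ± 187.0 and 2346 ± 106.7 CPM, a log2 fold change of -0.01 with an interval of -0.16 to 0.14 (edgeR adjusted p = 0.991). Of the 6 genes Eef1a2 was measured most tightly. Rpl22 was at 118.4 ± 15.3 and 113.1 ± 7.36 CPM, a log2 fold change of -0.07 with an interval of -0.24 to 0.11 (edgeR adjusted p = 0.948). Rpl22l1 was at 14.1 ± 3.05 and 14.4 ± 2.90 CPM, a log2 fold change of 0.03 with an interval of -0.31 to 0.37 (edgeR adjusted p = 0.985), the widest of the 6. With 1 library left out in turn, the estimates of 5 members crossed 0 and that of Rpl3 did not.

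**Figure D3:**
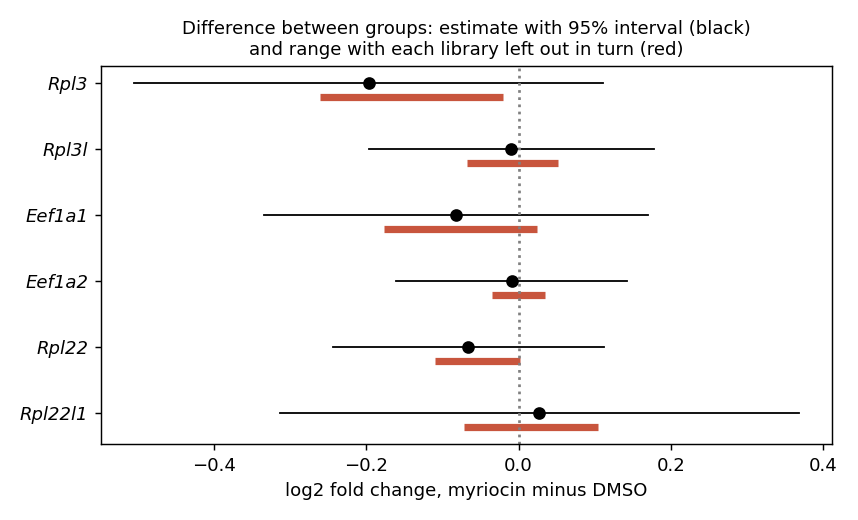
Log2 fold change of each member, myriocin minus DMSO, with the 95% interval of the edgeR fit in black and the range over 11 fits that each leave out 1 library in red. Every interval includes 0, from -0.50 to 0.11 for Rpl3 to -0.16 to 0.14 for Eef1a2.

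A ratio of paralogs within a library needs no scaling between libraries. The reads of Rpl3l were 10.1, 5.46, 9.34, 9.70 and 11.3 times those of Rpl3 in DMSO libraries 1 to 5, and 7.62 to 11.4 times with a median of 10.4 in the myriocin libraries. The reads of Eef1a2 were 6.85, 4.49, 6.25, 6.67 and 7.01 times those of Eef1a1 in the DMSO libraries, and 4.85 to 7.46 times with a median of 6.78 in the myriocin libraries. In both pairs DMSO 2 and Myriocin 1 were the lowest. The reads of Rpl22l1 were 0.0974, 0.119, 0.134, 0.108 and 0.134 times those of Rpl22 in the DMSO libraries, and 0.104 to 0.156 times with a median of 0.121 in the myriocin libraries.

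The groups did not differ in any of the 3 ratios beyond the spread between libraries. On the log2 scale the ratio of Rpl3l to Rpl3 was 3.16 ± 0.41 (SD, n = 5) under DMSO and 3.32 ± 0.21 (SD, n = 6) under myriocin, a difference of 0.17 with a 95% interval of -0.21 to 0.58 (2-sided exact permutation p = 0.472, adjusted over the 3 pairs 0.561). Without DMSO 2 this difference was -0.01. The ratio of Eef1a2 to Eef1a1 was 2.63 ± 0.26 and 2.70 ± 0.23, a difference of 0.08 with an interval of -0.24 to 0.42 (exact permutation p = 0.561, adjusted 0.561), and of -0.04 without DMSO 2. The ratio of Rpl22l1 to Rpl22 was -3.09 ± 0.20 and -2.99 ± 0.24, a difference of 0.09 with an interval of -0.22 to 0.40 (exact permutation p = 0.502, adjusted 0.561). The smallest p that the assignments of these libraries allow is 0.00216.

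**Figure D4:**
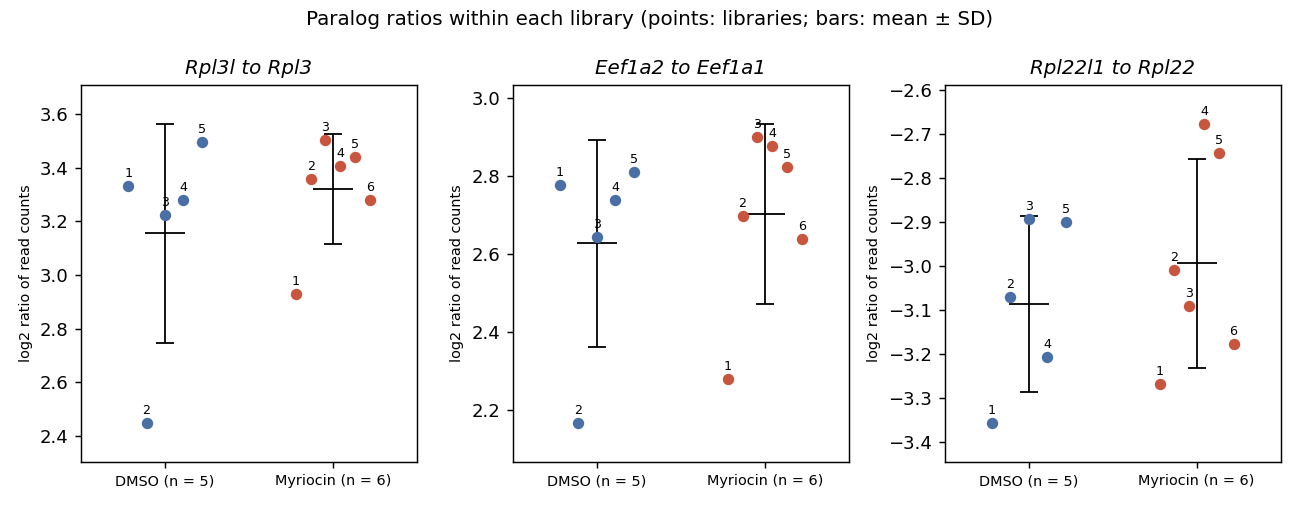
Log2 ratio of read counts within each library for the 3 pairs, by group, with replicate numbers beside the points and bars for mean ± SD. DMSO 2 (2.45 and 2.17) and Myriocin 1 (2.93 and 2.28) lie below the other 9 libraries in the first 2 pairs and within their range in the third.

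The ratios of the first 2 pairs varied together between libraries. The log2 ratio of Rpl3l to Rpl3 and that of Eef1a2 to Eef1a1 had a Pearson r of 0.951 over the 11 libraries (permutation p = 4.0e-05, adjusted over 15 relations 6.0e-04) and a Spearman rho of 0.90 (adjusted permutation p = 0.0048). With group means removed r was 0.956. The libraries farthest from the median were DMSO 2 and Myriocin 1. Without them r was 0.843 over the other 9 libraries (exact permutation p = 0.00622), which no longer passed when multiplied by the 15 relations (0.0933). That is a stricter adjustment than the Benjamini-Hochberg one used for the other relations, which was not rerun over these 9 libraries. Those 9 libraries lay between 3.22 and 3.50 for Rpl3l to Rpl3 and between 2.64 and 2.90 for Eef1a2 to Eef1a1.

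Between genes, r was high among the general members and among the muscle members, and near 0 within a pair. Described as log2 CPM over the 11 libraries, r was 0.877 between Rpl3 and Eef1a1 and 0.864 between Rpl3l and Eef1a2, but -0.08 between Rpl3 and Rpl3l and -0.16 between Eef1a1 and Eef1a2. In DMSO 2, Rpl3 lay 0.68 and Eef1a1 0.42 above the mean of all libraries on the log2 scale, while Rpl3l lay 0.12 and Eef1a2 0.08 below it. In Myriocin 1, Rpl3 lay 0.21 and Eef1a1 0.37 above the mean, with Rpl3l 0.10 and Eef1a2 0.01 below it. The muscle members were both above their means in DMSO 5 (Rpl3l by 0.24, Eef1a2 by 0.18) and Myriocin 4 (by 0.26 and 0.11). How far the r values between genes rest on these few libraries was not tested. DMSO 5 and Myriocin 4 also had the steepest rise of level with GC content over genes. Their log2 slopes were 0.0876 and 0.156 per 10 points of GC, against at most 0.0502 elsewhere. Rpl3l (56.1%) and Eef1a2 (60.6%) had the highest GC content of the members. The r values between genes were not recomputed with GC trends removed, and the part of GC in them was not tested. The third pair differed: Rpl22 and Rpl22l1 had an r of 0.711 with each other, and no relation of their ratio to either of the other 2 ratios passed the test (r of 0.299 and 0.371, adjusted permutation p = 0.416 and 0.344).

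**Figure D5:**
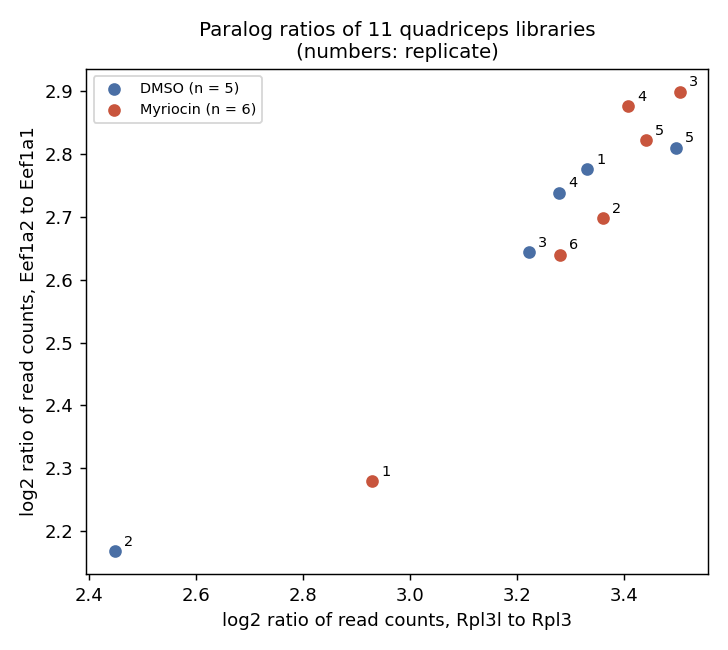
Log2 ratio of Rpl3l to Rpl3 (x axis) against log2 ratio of Eef1a2 to Eef1a1 (y axis) in the 11 libraries, numbered by replicate and coloured by group. The ratios rose together (r = 0.951), with DMSO 2 and Myriocin 1 at the low end and 0.843 over the other 9 libraries.

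Markers of other cells and fibres were high for some lists and low for others in DMSO 2 and Myriocin 1. DMSO 2 had the highest summed levels of 6 slow fibre markers (492.8 CPM), of 3 neutrophil markers (404.5, others 1.05 to 54.1) and of 3 adipocyte markers (322.8, others 34.1 to 117.0). Slow fibre markers were at 490.3 CPM in Myriocin 5, with log2 ratios of 3.44 (Rpl3l to Rpl3) and 2.82 (Eef1a2 to Eef1a1). A relation of slow fibre markers to the ratios was not tested. DMSO 2 was the lowest of its group for 5 endothelial (228.9 CPM), 3 smooth muscle (246.2) and 5 fibro-adipogenic markers (661.0), and the lowest of all libraries for 4 liver markers (5.40). Myriocin 1 was the highest in 5 fibro-adipogenic markers (1282 CPM, others 627.9 to 975.3), in 5 macrophage markers (108.2, others 47.5 to 93.3), in 3 satellite cell markers (5.53, others 2.25 to 4.46) and in 11 genes of denervation and regeneration (202.8, others 56.5 to 168.7). It was the second lowest of its group for 3 Schwann cell markers (39.9 CPM) and for the endothelial markers (211.3), and the lowest of its group for the liver markers (6.22). Of the DMSO group, DMSO 2 was also the highest for the 5 macrophage markers (91.4 CPM, others 66.1 to 82.6). Adipocyte markers in Myriocin 1 (96.2 CPM) were the second highest of the myriocin group. For the other lists, skeletal muscle, fast fibre, lymphocyte and neuron, both libraries lay within the range of the others. Across all 11 libraries, neither the mean of the non-muscle markers nor that of 10 fast fibre markers passed the test against any of the 3 ratios (|r| of 0.135 to 0.466, adjusted permutation p from 0.309 to 0.703). The fast fibre mean weights its markers alike, among them Tnnc2 at only 1.08 ± 0.55 CPM (SD) under DMSO. The non-muscle mean pools unlike cell types, the liver markers among them, so it cannot show whether 1 of them followed a ratio. Its r with Rpl3l to Rpl3 was -0.31, but -0.59 without DMSO 4 and Myriocin 4 and 0.09 without DMSO 2. With Eef1a2 to Eef1a1 the values were -0.14, -0.50 and 0.23. With Rpl22l1 to Rpl22 they were 0.42, 0.42 and 0.49. The part of these cells in the ratios of DMSO 2 and Myriocin 1 was not tested. Library trends with GC content and transcript length moved the relation between the ratios of the first 2 pairs little, with r = 0.941 after both were removed from each library.

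The other cytosolic ribosomal protein genes, taken as their mean log2 CPM, rose and fell with Rpl22 (r = 0.893, adjusted permutation p = 0.00127) and Rpl22l1 (r = 0.830, adjusted permutation p = 0.00535). For Rpl22 the value was lower without some libraries: r was 0.703 without DMSO 2 and DMSO 5, the farthest from the median, and 0.560 without DMSO 2, DMSO 5 and Myriocin 4, where the adjusted exact permutation p was 0.748. For Rpl22l1 the values were 0.872 and 0.840, the latter with an adjusted exact permutation p of 0.0517. For Rpl3 the r of 0.700 did not pass (adjusted permutation p = 0.0519) and was 0.431 without DMSO 2. For Rpl3l, Eef1a1 and Eef1a2 r was 0.495, 0.467 and 0.408 over the 11 libraries and did not pass (adjusted permutation p of 0.270, 0.270 and 0.341). These values moved with DMSO 2 in opposite directions. Without it, r was 0.894 for Rpl3l and 0.802 for Eef1a2, both above that of Rpl3, and 0.0967 for Eef1a1. For Rpl22 and Rpl22l1, r without DMSO 2 was 0.822 and 0.866. The mean of the other ribosomal protein genes was highest in DMSO 2 (7.39), DMSO 5 (7.28) and Myriocin 4 (7.27), against 6.78 to 6.99 elsewhere. In those libraries alone, levels relative to the mean of all libraries fell with transcript length. The log2 slopes per doubling were -0.0647, -0.122 and -0.122, against 0.00767 to 0.0656 elsewhere. The relations above were not recomputed with length trends removed, and the part of length in them was not tested.

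The genes most like each member were those with the highest r of log2 CPM over the 11 libraries among 8941 tested genes with a mean of at least 5 CPM, given as a description. For Rpl3 they were Fabp4, a fatty acid carrier abundant in adipocytes and endothelium (r = 0.965), Lipe, the hormone-sensitive lipase of adipocytes (0.955), and the mitochondrial serine transporter Sfxn1 (0.941). Without DMSO 2 these values were 0.883, 0.841 and 0.787. Fabp4 was at 438.7 CPM in DMSO 2, 202.3 in Myriocin 1 and 221.7 in Myriocin 4, and at 100.2 to 164.7 in the other 8. For Eef1a1 they were Itm2b, a membrane protein gene (0.958), and the neighbouring pair Tmem176b (0.916) and Tmem176a (0.915).

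The muscle members had other neighbours. Rpl3l was closest to Sars, the seryl-tRNA synthetase (0.948), the small GTPase gene Arl3 (0.947) and the transcription factor gene Usf1 (0.945). Among the genes most like Eef1a2 were Zfp579 (0.944) and Sh3bgr (0.943). Eef1a2 and Rpl3l were both highest in DMSO 5 and Myriocin 4 of their groups. Rpl22 was closest to Srp14, a subunit of the signal recognition particle (0.975), the vacuolar ATPase subunit Atp6v1g1 (0.961) and Lsm6, of the RNA-binding Lsm ring (0.956). Rpl22l1 was closest to Selenoh (0.914), the adenylate kinase gene Ak6 (0.906) and Srp9, the partner of Srp14 (0.905).

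Genes that work with the members were counted in the same edgeR test. Of 18 partners of translation elongation, not all of them elongation or termination factors, 5 had a positive and 13 a negative log2 fold change. Their median was -0.03 against -0.01 over all genes. Of these 18 genes, 0 passed the adjusted test and 2 were higher at an unadjusted p under 0.05, against 2.33% of all genes. Eef2k, the kinase that inhibits elongation factor 2, was at 78.5, 78.7, 71.0, 77.7 and 72.0 CPM under DMSO and at 82.7 to 89.9 under myriocin, so that all 6 myriocin libraries were above all 5 DMSO libraries. Its log2 fold change was 0.20 (SE 0.06, edgeR adjusted p = 0.936, and 0.106 or more in each of 24 alternatives), which does not pass. Gspt1, the release factor eRF3a, was at 41.2 ± 3.24 and 47.2 ± 4.26 CPM with a log2 fold change of 0.20 (edgeR adjusted p = 0.936).

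Of 6 tested methyltransferases that modify elongation factors or Rpl3, 0 passed at either level, and Eef1akmt1, which modifies eEF1A, had the smallest p (log2 fold change -0.17, edgeR adjusted p = 0.936), followed by Eef2kmt, which modifies elongation factor 2 (0.21). Of 11 other ribosomal protein genes with paralogs, 0 passed at either level, with a median log2 fold change of -0.06 that was 0.03 without DMSO 2. The smallest p in that group belonged to Fau (-0.13) and Rps4x (-0.09). Of 18 ribosome biogenesis genes, 0 passed at either level, and the smallest p was that of Rrs1, an assembly factor of the large subunit (-0.13, edgeR adjusted p = 0.936), followed by Ubtf, a factor of RNA polymerase I (-0.10). Of 15 initiation and mTORC1 genes, 0 passed the adjusted test, and Rps6kb1, the S6 kinase, was the 1 gene higher at an unadjusted p under 0.05 (log2 fold change 0.15, edgeR adjusted p = 0.936). Larp1, which binds the messages of ribosomal proteins, was at -0.09.

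The ribosomal protein genes themselves leaned one way without passing. Of 44 large subunit genes 42 had a negative log2 fold change, and of 32 small subunit genes all 32, against 53.7% of all genes, with medians of -0.09 and -0.10. None passed at either level. The smallest p belonged to Rpl26 (125.2 ± 26.7 and 111.3 ± 12.5 CPM) and Rpl27 (98.2 ± 17.3 and 89.4 ± 5.50) in the large subunit, and to Rps19 (105.3 ± 21.3 and 94.6 ± 8.93) and Rps20 (178.3 ± 42.4 and 157.2 ± 18.9) in the small subunit. The lean was not there in every choice of libraries: without DMSO 2, 21 of 44 and 21 of 32 were negative, and without DMSO 2, DMSO 5 and Myriocin 4, 3 of 44 and 4 of 32. DMSO 2, DMSO 5 and Myriocin 4 are the libraries with the negative length slopes given above. The lean was not recomputed with length trends removed.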

How the data were processed

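Total RNA of quadriceps was isolated with a Direct-zol kit and sequenced by DNBseq, per the labels' protocols. What the authors deposited is a single matrix of raw counts by gene and library. The submitters' processing notes name STAR 2.5.2b, HTSeq 0.6.0 and the build GRCm38. Strand setting and annotation release: not given in the sources used here. The 5 HTSeq summary lines, 24.8% to 28.2% of reads, stayed out of library sizes and tests. Column names gave the sample of each column, and 0 columns were left over. No pair of libraries within a group agreed within sampling noise. No mention of molecular identifiers was found, so counting errors cover counting only.

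The test was that of edgeR 4.0.16 under R 4.3.3 (filterByExpr with minimum count 10 and minimum total 15, TMM, robust quasi-likelihood F test, treatment as the single factor) and adjusted over 14117 genes. The standard error was derived from the F statistic. DESeq2 1.42.0 and limma 3.58.1 were alternatives. The test code was checked on simulated data. Ratios of counts plus 0.5 were compared by exact permutation over all assignments of the libraries, and relations by 100000 permutations, or exactly for under 10 libraries. Log2 CPM used a prior count of 2. Coordinates, transcripts and sequences come from GENCODE mouse release M21, and Biopython 1.88 aligned the coding sequences.

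The members, gene lists and tests were chosen with earlier results of these data known. The named genes are the 6 members, the 3 genes with the highest r to each, and, per translation list, the 2 tested genes of smallest p. Of the genes this rule takes, 1 is not reported here. In the text, DMSO 2 means replicate 2 of the DMSO group. The alternatives are described in the closing section.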

Additional observations from a re-analysis of the deposited data

Results flagged for a closer look

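Of 18 sets of values tested for a library far from the rest of its group (6 members and 3 ratios in 2 groups), 6 held one, where chance gives about 0.9. DMSO 2 accounted for 4 of them: Rpl3 at 91.6 CPM and Eef1a1 at 494.7 CPM were the highest of the DMSO group, and the log2 ratios of Rpl3l to Rpl3 at 2.45 and of Eef1a2 to Eef1a1 at 2.17 were the lowest. These 4 values are not independent, since each ratio contains a gene already named. In the DMSO group, Rpl3l was highest in DMSO 5 at 643.2 CPM. In the myriocin group, Eef1a1 was highest in Myriocin 1 at 479.2 CPM.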

How the results depend on the processing

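No member or ratio passed its test in any alternative run (smallest adjusted p 0.620 for members, 0.286 for ratios), and 0 genes passed in all but DESeq2's test, with 6. Values that changed sign were small. Without scaling Rpl22l1 was -0.0121. Without the 3 libraries with liver transcripts, Rpl3l was 0.00606, Eef1a2 0.0431 and Rpl22l1 -0.0353. Without DMSO 2, DMSO 5 and Myriocin 4, Eef1a1 was 0.0677, Rpl22 0.0476 and the ratio of Eef1a2 to Eef1a1 -0.0517. Leaving out 1 library at a time gave 0 to 0 genes, and log2 fold changes from -0.261 to -0.0201 (Rpl3), -0.0684 to 0.0519 (Rpl3l), -0.177 to 0.0239 (Eef1a1), -0.0348 to 0.0349 (Eef1a2), -0.110 to 0.00137 (Rpl22) and -0.0716 to 0.104 (Rpl22l1). The ratio differences ran from -0.0119 to 0.250 (Rpl3l to Rpl3), -0.0397 to 0.160 (Eef1a2 to Eef1a1) and 0.0239 to 0.147 (Rpl22l1 to Rpl22). With 1 library left out, r between the first 2 ratios ran from 0.948 to 0.972, and r of the ribosomal protein genes from 0.822 to 0.921 with Rpl22 and from 0.790 to 0.866 with Rpl22l1. Without the liver libraries the latter 2 were 0.899 and 0.721, and without the 3 farthest libraries 0.560 and 0.840, none of which passed after adjustment with 8 libraries. Between the first 2 ratios, r was 0.843 without DMSO 2 and Myriocin 1. The cause of these shifts was not tested. The settings that leave out 2 or 3 named libraries, those on GC content, length and shared pseudogene sequence, and all settings for relations were chosen after seeing the data.

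Groups share replicate numbers 1 to 5, but same-numbered libraries did not deviate together (r from -0.13 to 0.09), so the numbers were not taken as pairs. With the replicate block, Rpl3l was 0.0235 and Eef1a2 0.00891, and 0 genes passed. The ratio differences were 0.17, 0.09 and 0.13 (exact sign-flip p = 0.5625, 0.5625 and 0.375, smallest possible 0.0625).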
